A study of Mus musculus with 10 samples.

Results

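Dense windows are stretches of 50 kb that hold unusually many accessible sites away from gene starts. They were found by tiling mouse chromosomes 1 to 19 (mm10) into 50 kb windows and counting, in each peak list, the distal intervals, which are called peaks with a midpoint more than 1 kb from every transcription start of GENCODE M21. The 300 windows with the largest mean share of a library's distal intervals over 9 libraries were kept, out of 49264 windows in all. Of the 49264 windows, 34342 held a distal interval in at least 1 library. Because the windows were selected on these counts, their high density is a description and was not tested.

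The samples were sorted cells of embryonic mouse hearts, and the measurement was bulk ATAC-seq, in which a transposase cuts accessible DNA and pileups of fragments are called as peaks. The E11.5 epicardium (3 libraries) and the E17.5 epicardium (3 libraries) were CD31- tdTomato+ PDPN+ cells, and the epicardium-derived cells (EPDCs, 3 libraries) were CD31- tdTomato+ PDPN- cells, 1 library from E12.5 hearts and 2 from E13.5 hearts. Every embryo carried Wt1CreERT2/+ and Rosa26tdTomato, from crosses to Rosa26tdTomato or C57BL/6J females, and the dams had received tamoxifen by gavage before the epicardium was sampled, so all groups, controls included, were lineage labelled through the Wt1 promoter and carried 1 altered Wt1 allele. Hearts of littermates were pooled for each sample, and the second E13.5 EPDC list merged 2 technical replicates, so that 10 samples gave 9 lists. E13.5 epicardium was not analysed here.

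The epicardium is the mesothelial layer on the heart surface. Some of its cells undergo epithelial-to-mesenchymal transition (EMT), enter the heart wall and become fibroblasts and mural cells; those cells are the EPDCs. Many enhancers lie inside introns or between genes, and genes that define a cell type are often surrounded by several of them. ATAC-seq shows where DNA was accessible but neither enhancer activity nor contacts between sites, so a dense window is defined only by crowding along the chromosome.

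The lists held 75234 to 109307 intervals, of which 54016 to 84889 were distal and autosomal. The E11.5 libraries had 73990, 84889 and 82269 distal intervals, the E17.5 libraries 54016, 70351 and 60822, and the EPDC libraries 58175 (E12.5), 64419 and 81873 (E13.5). Promoters of all 11 epicardial marker genes were called in every library except 1 E13.5 EPDC library, which had 9. Of 8 cardiomyocyte markers 6 or 7 were called in the E11.5 libraries and 3 to 5 in the others, of 8 endothelial markers 3 or 4, and of 6 blood markers 1. All 6 mural markers and 7 or 8 of 8 mesenchymal markers were called in every library. The EPDC lists also differed in kind from the epicardial lists: they held 3 to 7 mitochondrial intervals against 0, and their largest −log10 p reached 70107 against 891. Population, embryonic day and these differences between the lists therefore cannot be told apart in any comparison with EPDCs, and in bulk cells a smaller number of cells of a type and a weaker signal per cell cannot be told apart either.

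The sequences that follow are the central 201 bases of 12 distal elements of the windows, read from mm10 on the plus strand. An element is a region that reaches 250 bp to each side of a peak summit. Letters in capitals match 1 of 20 short motifs, searched on both strands and listed further on, and a match is a description of letters and not of a bound factor. The first 4 are the strongest elements in the windows of rank 1, 2, 4 and 6, accessible in all 9 libraries, and lie in introns of Ccdc85c, Col4a1, Hspg2 and Gse1.
Ccdc85c intron, chr12:108244779-108244979: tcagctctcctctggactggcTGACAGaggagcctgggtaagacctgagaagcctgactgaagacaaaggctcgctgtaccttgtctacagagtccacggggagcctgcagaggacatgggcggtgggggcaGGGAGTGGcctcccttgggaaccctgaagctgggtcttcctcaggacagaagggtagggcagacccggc
Col4a1 intron, chr8:11273589-11273789: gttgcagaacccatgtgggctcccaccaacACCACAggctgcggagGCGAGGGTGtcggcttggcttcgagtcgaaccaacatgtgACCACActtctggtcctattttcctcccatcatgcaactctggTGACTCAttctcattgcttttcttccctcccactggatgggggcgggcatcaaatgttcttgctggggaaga
Hspg2 intron, chr4:137495167-137495367: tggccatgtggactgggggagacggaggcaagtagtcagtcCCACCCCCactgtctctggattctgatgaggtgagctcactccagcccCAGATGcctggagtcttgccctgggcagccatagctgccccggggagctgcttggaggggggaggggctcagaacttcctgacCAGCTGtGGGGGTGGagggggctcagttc
Gse1 intron, chr8:120276606-120276806: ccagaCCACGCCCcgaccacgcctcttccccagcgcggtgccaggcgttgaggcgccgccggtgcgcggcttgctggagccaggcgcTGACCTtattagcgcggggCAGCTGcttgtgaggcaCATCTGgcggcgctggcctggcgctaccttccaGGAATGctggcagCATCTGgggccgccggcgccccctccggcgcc

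The next 4 sequences belong to elements that separated E17.5 from E11.5 epicardium, the first pair called at E17.5 alone and the second pair in E11.5 epicardium and EPDCs with at most a weak call at E17.5.
Msi2 intron, chr11:88461742-88461942: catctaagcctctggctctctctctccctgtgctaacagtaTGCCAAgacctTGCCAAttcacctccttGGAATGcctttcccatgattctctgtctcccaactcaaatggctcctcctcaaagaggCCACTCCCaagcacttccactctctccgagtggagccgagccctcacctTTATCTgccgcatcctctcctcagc
Sema3f intron, chr9:107701722-107701922: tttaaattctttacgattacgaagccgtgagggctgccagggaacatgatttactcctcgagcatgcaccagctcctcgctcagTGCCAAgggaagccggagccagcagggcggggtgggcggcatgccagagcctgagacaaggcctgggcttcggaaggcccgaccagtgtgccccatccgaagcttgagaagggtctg
118 kb from the Tbx18 start, chr9:87613125-87613325: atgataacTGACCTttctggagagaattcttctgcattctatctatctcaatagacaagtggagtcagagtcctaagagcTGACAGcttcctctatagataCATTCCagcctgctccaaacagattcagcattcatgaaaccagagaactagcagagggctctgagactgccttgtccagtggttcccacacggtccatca
Itpkb intron, chr1:180415132-180415332: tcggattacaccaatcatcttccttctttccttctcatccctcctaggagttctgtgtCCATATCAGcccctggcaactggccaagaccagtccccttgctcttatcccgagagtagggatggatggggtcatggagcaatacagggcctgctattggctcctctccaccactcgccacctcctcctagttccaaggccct

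The last 4 belong to elements that separated EPDCs from epicardium, the first pair called in EPDCs alone and the second pair in epicardium of both days with at most a weak call in EPDCs.
7.5 kb from the Foxs1 start, chr2:152925606-152925806: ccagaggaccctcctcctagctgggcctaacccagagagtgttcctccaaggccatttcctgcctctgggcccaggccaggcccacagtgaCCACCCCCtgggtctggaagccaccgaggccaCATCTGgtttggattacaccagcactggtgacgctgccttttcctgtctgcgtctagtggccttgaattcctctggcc
108 kb from the Bcas1 start, chr2:170319309-170319509: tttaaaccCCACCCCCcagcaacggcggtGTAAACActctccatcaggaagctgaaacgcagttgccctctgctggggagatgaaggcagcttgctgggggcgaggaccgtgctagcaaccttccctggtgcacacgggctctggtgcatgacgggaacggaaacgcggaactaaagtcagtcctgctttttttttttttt
Bcar3 intron, chr3:122428410-122428610: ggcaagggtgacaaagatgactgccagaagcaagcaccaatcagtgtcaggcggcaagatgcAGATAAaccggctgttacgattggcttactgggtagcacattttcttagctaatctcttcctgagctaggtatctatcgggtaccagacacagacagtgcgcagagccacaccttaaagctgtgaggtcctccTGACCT
Tcf20 intron, chr15:82940894-82941094: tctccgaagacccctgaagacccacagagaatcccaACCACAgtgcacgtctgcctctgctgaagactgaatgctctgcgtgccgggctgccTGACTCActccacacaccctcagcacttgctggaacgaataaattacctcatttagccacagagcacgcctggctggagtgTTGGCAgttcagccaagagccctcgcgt

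The 300 windows spanned 15 Mb, 0.609% of all windows, and held on average 3.84% of a library's distal intervals. The E11.5 libraries placed 3.56%, 3.29% and 3.37% of their distal intervals there, the E17.5 libraries 4.50%, 4.11% and 4.32%, and the EPDC libraries 4.23%, 3.77% and 3.42%. The group means were 3.41% ± 0.137, 4.31% ± 0.195 and 3.80% ± 0.406 (SD, n = 3 each). All E17.5 libraries lay above all E11.5 libraries, whereas 1 EPDC library lay within the E17.5 range, 1 within the E11.5 range and 1 between them. Within each group the share was lower in libraries with more distal intervals, and the part of that number in the group difference was not tested directly. When each library was cut to its strongest 54016 distal intervals, the means were 3.73% ± 0.0487, 4.49% ± 0.0162 and 4.00% ± 0.244. The rule ranked windows by these same shares, in which 1 interval weighs more in a library with fewer intervals, so the values describe the chosen set and no order of the groups is read from them.

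**Figure D1:**
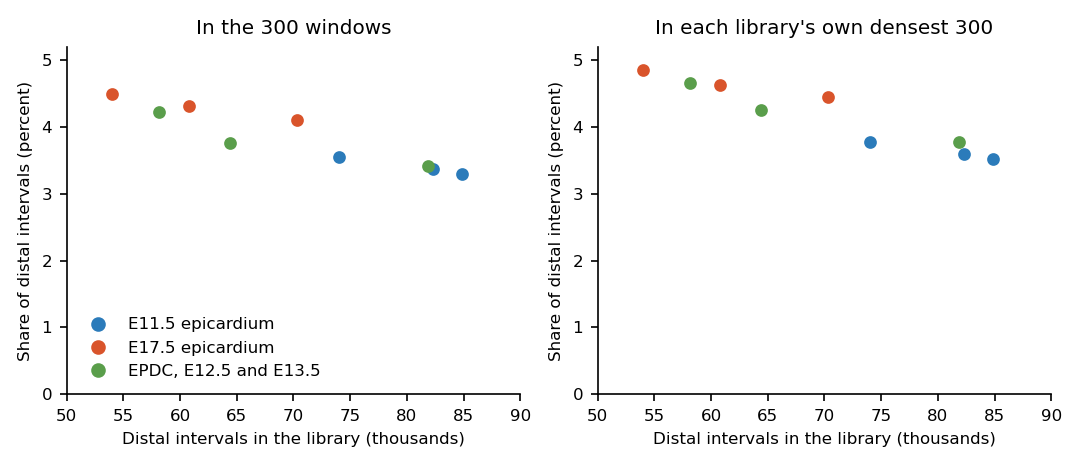
The plot shows, for each of the 9 libraries (1 point each, coloured by group), the percentage of its distal intervals that lay in the 300 windows (left) and in the 300 windows densest in that library alone (right), against its number of distal intervals. The E17.5 libraries had 4.11% to 4.50% in the 300 windows, above the E11.5 libraries at 3.29% to 3.56%.

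No dense window was without distal intervals in any library: the lowest count in a library was 3 to 6, the median 8 to 10 and the highest 12 to 14. The group means did not give the same list. Of the 300 windows, 201 were also among the 300 densest of the E11.5 libraries alone, 196 among those of the E17.5 libraries and 182 among those of the EPDC libraries, and 80 were in all of these lists. The rule itself ties these counts to the chosen windows, so they describe how the set was composed.

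Of the 10 windows with the largest mean share, 2 held the start of a protein-coding gene, and 8 overlapped a gene body. The first window was chr12:108200001-108250000 in Ccdc85c. It held 13 distal intervals in each E11.5 library, 13, 14 and 13 in the E17.5 libraries and 10, 7 and 12 in the EPDC libraries. In plain counts every EPDC library was below every epicardial library, but the lists differ in length. Per 100000 distal intervals the E12.5 EPDC library, at 17.2, lay among the E11.5 libraries, at 17.6, 15.3 and 15.8, and the difference was not called (−0.20 ± 0.14, log2, SE, adjusted p = 0.376). Against the E17.5 libraries, at 24.1, 19.9 and 21.4, all EPDC libraries were lower per 100000 too, and that difference was called (−0.60 ± 0.14, adjusted p = 0.00622). The second, chr8:11250001-11300000, lay in Col4a1, which with Col4a2 encodes the collagen IV chains of basement membranes. Its counts were 8, 11 and 13 at E11.5, 9, 13 and 9 at E17.5, and 14, 12 and 14 in EPDCs, and these plain counts overlapped. Per 100000 distal intervals the EPDC libraries, at 24.1, 18.6 and 17.1, lay above the E11.5 libraries, at 10.8, 13.0 and 15.8, and the window was called higher in EPDCs (0.56 ± 0.15, adjusted p = 0.0242).

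The third window, chr2:105200001-105250000, held the start of Them7 and had 13, 13 and 13 intervals at E11.5, 10, 14 and 11 at E17.5 and 9, 10 and 10 in EPDCs. The fourth, chr4:137450001-137500000, held the starts of 1700013G24Rik and Hspg2, the gene of perlecan, a heparan sulphate proteoglycan of basement membranes. It had 9, 12 and 11 intervals at E11.5, 11, 13 and 10 at E17.5 and 11, 10 and 14 in EPDCs. What these counts show depended on the scale. In plain counts EPDCs lay below E11.5 in the third window, whereas per 100000 they had 15.5, 15.5 and 12.2 against 17.6, 15.3 and 15.8, with overlap and no call (adjusted p = 0.354). In the fourth window plain counts overlapped, whereas per 100000 the E17.5 libraries had 20.4, 18.5 and 16.4 against 12.2, 14.1 and 13.4 at E11.5 and the window was called higher (0.45, adjusted p = 0.0128). The fifth window lay in Zbtb7c on chromosome 18, the sixth in Gse1 on chromosome 8, and the seventh in Afap1, an actin filament-associated protein. The eighth window, chr11:88550001-88600000, lay in Msi2, an RNA-binding protein, and had 12, 13 and 13, then 9, 12 and 9, then 11, 10 and 11 intervals in E11.5, E17.5 and EPDC libraries.

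The ninth window, chr2:167550001-167600000, overlapped no protein-coding gene and had its nearest edge 11.8 kb from the start of Snai1, a zinc finger factor of EMT. It held 11, 11 and 11 intervals at E11.5, 9, 12 and 10 at E17.5 and 11, 12 and 12 in EPDCs, with overlapping plain counts and no call in any comparison. The tenth, chr12:109400001-109450000, lay 2.82 kb from the start of the imprinted gene Dlk1 and had 12, 12 and 13, then 9, 9 and 10, then 11, 12 and 10 intervals. The E11.5 libraries were above the E17.5 libraries there in plain counts, while the shares of distal intervals were alike, with a log2 difference of −0.01 ± 0.16 (SE).

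**Figure D2:**
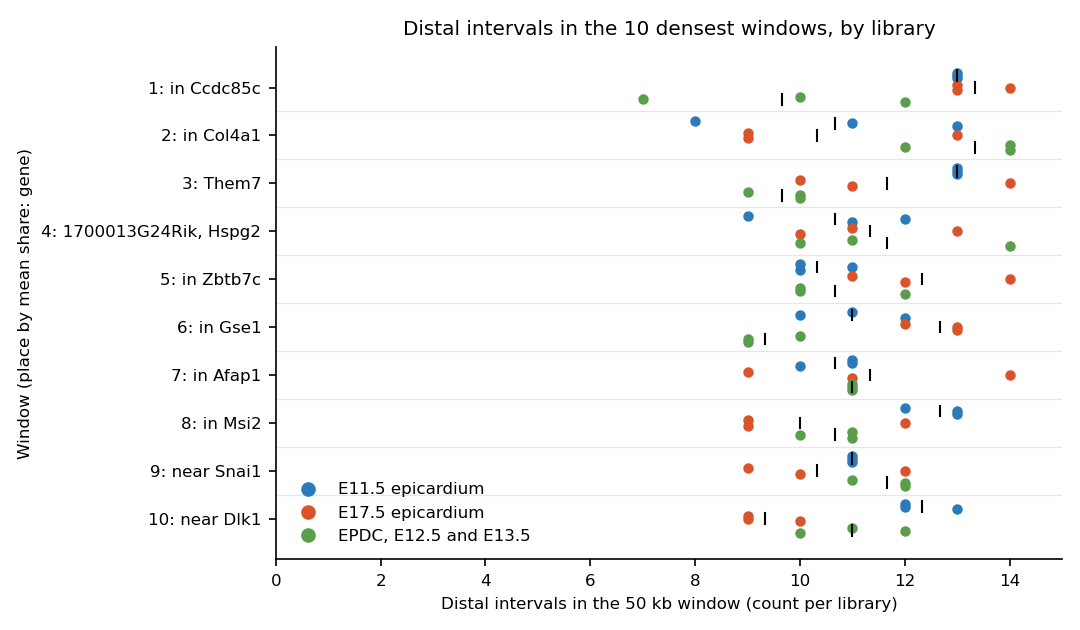
The plot gives the number of distal intervals per library (points, coloured by group) in the 10 windows with the largest mean share, with a short black line at each group's mean of 3 libraries. Counts ran from 7 to 14, and the EPDC points in the window in Ccdc85c, at 7, 10 and 12, lay below all 6 epicardial points in these plain counts but not per 100000 distal intervals.

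The edge of the set was narrow. In distal intervals per 100000, the window at Aaas and Sp7 (2 places before the last) had a mean of 11.4293, a window 23.1 kb from Vps8 (the place before the last) 11.4218, and a window in Sept9 (the last place, 300) 11.4176. Just outside were windows in Akap2 and Pakap at 11.4162, in Vti1a at 11.4155 and at Csrp1 at 11.4066. The first window, for comparison, had 17.4.

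Position, genes and sequence of the windows were set beside those of the 14098 windows with a mean of at least 2 distal intervals, which are called the tested windows here. The median dense window lay to 87.4% inside bodies of protein-coding genes, against 59.1% in the tested windows. At least 95% of the window was inside such bodies in 137 of 300 (45.7%) against 30.7%. Yet 225 of the 300 (75%) held no start of a protein-coding gene, against 63.6%, and 149 (49.7%) no start of any gene against 38.3%. The first windows in Msi2, Col4a1 and Zbtb7c lay wholly inside such bodies, whereas 62 of the 300 (20.7%) lay fully outside, against 25.6%. The rule leaves out sites near starts, so windows with few starts have more room for distal intervals, and that part was not tested.

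The GC content was 48.5% in the median dense window and 44.9% in the median tested window, and repeats took 21.5% against 25% of the bases. The number of elements had a median of 15 against 7, and elements with a summit in all 9 libraries a median of 5 against 1, and neighbouring elements were a median of 2.27 kb apart against 3.81 kb. A rule that takes the most intervals in a fixed length over all libraries sets these values, so they are no further property of the windows. Windows next to a dense window, but not dense themselves, held a median of 4.33 intervals against 3.33.

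The dense windows fell into 264 runs, of which 236 were single windows, 22 pairs, 4 runs of 3 and 2 runs of 4. Msi2 held a run of 4 from chr11:88400001 to 88600000 without any start of a protein-coding gene, with a mean of 37.1 distal intervals per library in 200 kb. A run of 3 from chr8:11250001 to 11400000 covered Col4a1 and Col4a2, which share a promoter region, with a mean of 29.8 intervals. The other run of 4 lay on chromosome 18 at Smad7 and Ctif, with a mean of 34.8 intervals. The other runs of 3 lay in a gap near Zfp36l1 on chromosome 12, at Irf2bpl on chromosome 12, and on chromosome 8 inside Gm20388. Gm20388 is a gene model of 4.43 Mb that spans many other genes and overlapped 11 dense windows, so it says little about position. By chromosome, 3.72% of the tested windows of chromosome 18, 3.69% of chromosome 19 and 3.12% of chromosome 11 were dense, against 0.564% of chromosome 13, where 4 windows were.

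Because the rule averages over all 9 libraries, it favours sites called in every one, and the sharing of elements is given as a description. A total of 4485 of 145044 distal elements lay in the windows, and 1343 of them (29.9%) had a summit in all 9 libraries, against 18.7% of all elements. Elements with a summit in 1 library were 10.8% against 18.1%. Of the 4485, 63.8% were intronic, 32.9% intergenic and 3.32% exonic, against 52.7%, 42.2% and 5.09% of all elements. The strength of the sites was given as a rank percentile, in which 0 is no peak and 100 the smallest p in the library. The mean over libraries had a median of 21.6 in the elements of the windows and 12.7 in all elements, but among elements shared by all 9 libraries the medians were 62.6 and 62.2. Widely shared elements thus had about the same rank in dense windows as in all.

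Motif letters were compared as shares of elements with at least 1 match on either strand. The KLF motif GGGNGTGG, of Krüppel-like factors, was in 23.7% of the elements of the windows and 17% of all elements. The E-box CAGCTG, read by TCF21 and MYOD, was in 38.6% against 34.4%, and the E-box CATCTG, of TWIST type, in 39.5% against 37.9%. The nuclear receptor motif AGGTCA was in 31.1% against 28.9%, the EGR and WT1 motif GCGNGGGNG in 5.64% against 4.27%, and the RUNX motif TGTGGT in 33.0% against 31.7%. GATA letters, AGATAA, went the other way with 27.4% against 33.2%, as did the forkhead motif TGTTTAC with 5.93% against 7.25%, the NFI motif TTGGCA with 29.2% against 30.2% and the SOX motif ACAATGG with 4.82% against 5.62%.

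The AP-1 motif TGANTCA was in 25.3% of the elements of the windows and 25.1% of all elements, and the TEAD motif GGAATG in 35.6% and 35.3%. The MEIS motif TGACAG was in 39.1% and 38.7%, the MAF motif TGCTGAC in 11.6% and 12%, the CTCF core CCACNAGNG in 8.07% and 7.51%, and the T-box motif AGGTGTGA in 2.32% and 2.09%. Among rare motifs, the SRF-like letters CCATATNAG were in 0.981% and 1.02%, and as N is any base they also match stretches without a full A/T core. The ETS motif CCGGAAGT was in 0.847% and 0.720%, the MEF2 motif CTATTTATA in 0.424% and 0.746%, and the C/EBP motif TTGCGCAA in 0.0223% and 0.0938%. Matches to the KLF and the EGR and WT1 letters can overlap, as can those to MEIS and MAF. Median GC content was also higher in the elements of the windows, 50.9% against 47.3%, and the part of GC content in these shares was not tested. Among elements shared by all 9 libraries the KLF share was 25.8% against 20.1% and the GATA share 28.7% against 31.2%. The order turned there for SOX (4.99% against 4.85%), CTCF (9.08% against 9.53%) and MEIS (36.7% against 38.9%).

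**Figure D3:**
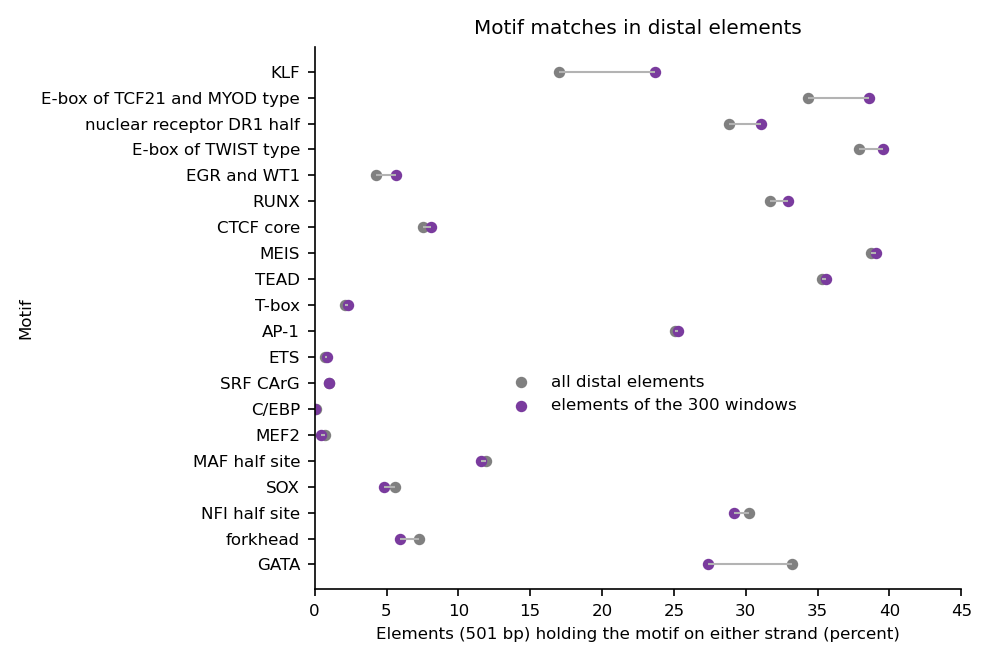
The plot gives, for each of 20 motifs, the percentage of distal elements with at least 1 match on either strand, in the 300 windows (purple, 4485 elements) and in all (grey, 145044 elements), in order of the difference. The KLF motif was 6.66 percentage points more frequent in the windows and the difference for GATA was −5.83 points.

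Genes with a start or a body in a dense window were counted next. Of 20780 protein-coding genes, 92 (0.443%) had a start in one and 257 (1.24%) a body that overlapped one. Wt1, the zinc finger factor of the epicardium, and Pdpn, podoplanin, were the 2 of 37 epicardial and mesothelial genes with a start in one (5.41%), and Gata4 and Meis1 were added by body. Of 25 mesenchyme and matrix genes Fbln2 and Sparc had a start there, and Pdgfrb and Loxl1 a body. Of 15 smooth muscle and pericyte genes Cspg4 and Tpm1 had a start there and Mylk a body.

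In the TGF-beta and BMP pathway, whose ligands act through SMAD factors and promote EMT, 3 of 33 genes had a start in a dense window: the inhibitor Smad7 and the target genes Id1 and Id3. Smad3, the inhibitory Smad6 and the corepressor Ski overlapped one by body, which made 6 of 33. Of 18 genes of the retinoic acid pathway the receptor Rara had a start there and its partner Rxra a body. Fos was the 1 AP-1 gene of 21 with a start there, with Bach2 by body. Of 29 actin cytoskeleton and focal adhesion genes, Actb and Tpm1 had a start there and Actn1, Tns1 and Parva a body. Nr1d1, a repressor of the circadian clock, was 1 of 23 glucocorticoid and clock genes.

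Of 27 FGF, PDGF and VEGF genes none had a start in a dense window, and the receptor genes Fgfr2 and Pdgfrb overlapped one by body. None of 14 endothelial genes had a start there, with Nfatc1 by body, and neither start nor body of any of 12 EMT transcription factors, 18 cardiomyocyte genes, 9 blood genes and 21 Hippo genes lay in one. Of 317 genes in 22 transcription factor families 7 (2.21%) had a start in a dense window and 21 (6.62%) a body. These lists were chosen with results known and long genes overlap windows more often, so the counts were not tested.

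The comparison of E17.5 with E11.5 epicardium asked whether density changed as the epicardium matured. A window's measure was the log2 of its distal intervals per 100000 in the library plus 1, and limma was fitted over all 14098 tested windows. All 300 were among them, as the rule chose high counts. The rule ranked windows by the mean of these same shares, in which an interval weighs more in the shorter E17.5 lists, so the fitted values of the 300 are not independent of their choice. They are given as a description beside those of all tested windows, and nothing is read from an excess over them. At an adjusted p below 0.05, 38.3% of the 300 had a higher share at E17.5 and 4 windows (1.33%) a lower share. Among all tested windows 16.4% were higher and 11.1% lower. The median difference was 0.31 in the 300 and 0.12 in all tested windows. Every call and every difference given for a window is against 0 and not against that shift. In plain counts, without any scaling, 110 of the windows called higher had a higher mean at E17.5 and the other 5 an equal one, with medians of 9.67 against 8.33 intervals. With equal numbers of top distal intervals in each library, 88 windows were higher and 4 lower, while 23.3% of all tested windows were called in either direction, and the median of all windows was 0.03. Without the second E11.5 replicate 78 windows of the 300 were called in place of 119, and 17.8% of all tested windows in place of 27.5%.

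The window with the smallest p, chr12:79950001-80000000, lay 113 kb from the start of Zfp36l1, an RNA-binding protein of mRNA decay. It held 7, 8 and 7 intervals at E11.5 against 9, 12 and 11 at E17.5, and its share rose by 0.85 ± 0.11 (log2, SE, adjusted p = 0.000233). The next was chr2:167850001-167900000, 32.1 kb from Ptpn1, a tyrosine phosphatase, with 8, 9 and 9 against 11, 14 and 13 intervals. Its share rose by 0.87 ± 0.11 (adjusted p = 0.000242). A window 55.0 kb from the start of Spsb1, which lay to 7.44% inside that gene, went from 7, 8 and 7 to 11, 12 and 10 intervals (0.90 ± 0.12, adjusted p = 0.000325). The remaining windows of that rank lay 56.0 kb from the corepressor gene Irf2bp2, with 8, 8 and 8 against 11, 13 and 10 intervals, and in Synpo2, an actin-binding protein, with 7, 7 and 7 against 10, 11 and 9.

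Of the 4 windows that fell, the window in Lmx1b, a LIM homeobox factor, held 11, 11 and 12 intervals at E11.5 against 4, 6 and 7 at E17.5 (−0.60 ± 0.14, adjusted p = 0.00842). A window 101 kb from Rnd3 held 10, 11 and 10 against 4, 6 and 4 (−0.71 ± 0.17, adjusted p = 0.00859). The window at the receptor genes Cntfr and Il11ra1 held 9, 10 and 13 against 3, 7 and 6 (−0.62 ± 0.19, adjusted p = 0.0298). The window 9.22 kb from Pofut2 held 12 in each E11.5 library and 7 in each E17.5 library (−0.36 ± 0.12, adjusted p = 0.0360). The groups did not overlap in plain counts in any of the 4, but these windows were picked by their calls in this comparison.

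The windows at the starts of listed genes were 13, with the transcription factor families, and so Foxs1 and Sp7, left out. Of these 13 windows 8 were called higher at E17.5 and none lower, against 38.3% of the 300 and 16.4% of all tested windows called higher. The lists were chosen with results known, and the rule ranked windows by these shares. No excess is read from the counts for the 13 windows here or in the EPDC comparisons. All 13 differences were above 0, as were 87.3% of those of the 300, with a median of 0.50. The Wt1 window, chr2:105100001-105150000, held 9, 8 and 7 intervals at E11.5 against 8, 11 and 10 at E17.5, with overlap in plain counts, and its share rose by 0.60 ± 0.15 (adjusted p = 0.00950). The Pdpn window, chr4:143250001-143300000, held 8, 8 and 8 against 10, 12 and 11 and rose by 0.78 ± 0.15 (adjusted p = 0.00241). The windows of the matrix genes Fbln2 and Sparc, of tropomyosin gene Tpm1, of Fos, Id1 and Smad7 also passed, with differences of 0.53, 0.63, 0.70, 0.45, 0.50 and 0.52. The windows of Rara, Cspg4, Actb, Nr1d1 and Id3 had 0.46, 0.41, 0.31, 0.24 and 0.09 and did not pass. At equal numbers 7 of the 13 passed and 12 differences were above 0, with Rara and Actb gained and the calls of Fos, Fbln2 and Id1 lost. At that setting 29.3% of the 300 and 14.4% of all tested windows were called higher.

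**Figure D4:**
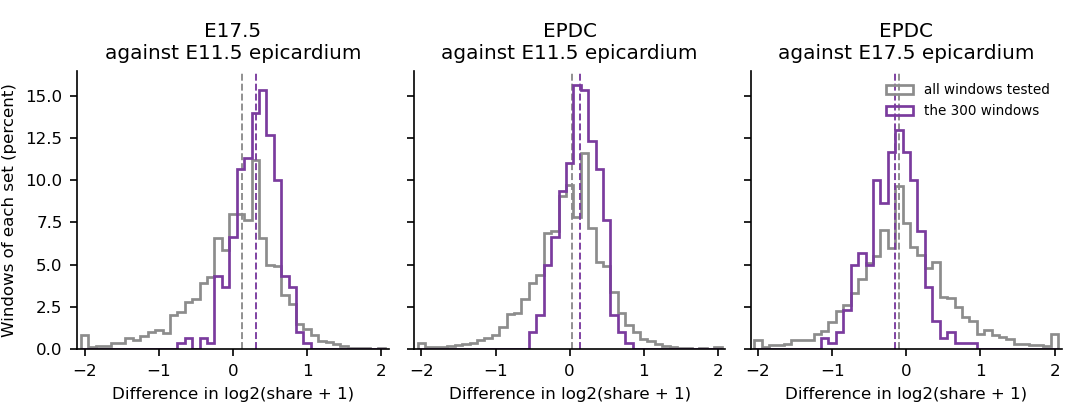
Each panel shows the distribution of window differences in log2(distal intervals per 100000 + 1) for 1 comparison, as the percentage of windows per bin, for the 300 windows (purple) and all 14098 tested windows (grey), with dashed lines at the medians. Values beyond the axis are counted in the end bins. The medians were 0.31 and 0.12 for E17.5 against E11.5, 0.14 and 0.04 for EPDCs against E11.5, and −0.15 and −0.10 for EPDCs against E17.5.

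EPDCs were compared with E11.5 epicardium, the earlier source of such cells, and this comparison shares its E11.5 libraries with the one just described. Of the 300 windows 38 were higher in EPDCs and 3 lower, against 8.36% and 7.54% of the tested windows, and the median difference was 0.14 against 0.04. All 41 had plain counts in the same order. With equal numbers the counts were 49 higher and 12 lower, against 10.2% and 8.43% of all tested windows. The count depended on single libraries, and so in most cases did that of all tested windows, of which 15.9% were called. It was 22, 13 and 10 without E11.5 replicate 1, 2 and 3 in turn, where 7.69%, 7.70% and 7.82% of all tested windows were called. It was 12 without the first E13.5 EPDC sample (all tested windows, 7.61%) and 64 without the second (15.8%). Without the E12.5 EPDC sample it was 38 (16.2%), of which 26 were higher and 12 lower, and the median difference fell to 0.07.

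The window at Lif, a cytokine of the IL-6 family, held 7, 7 and 8 intervals at E11.5 and 9, 9 and 11 in EPDCs (0.59 ± 0.11, adjusted p = 0.00534). A window on chromosome 18 that lay to 31.9% inside Sncaip went from 6, 8 and 7 to 9, 10 and 10 (0.66 ± 0.13, adjusted p = 0.00542). The window 113 kb from Zfp36l1 was also higher, with 8, 9 and 11 intervals in EPDCs (0.54 ± 0.11, adjusted p = 0.00605). A window in Megf6 had 7, 5 and 7 against 9, 9 and 11 intervals (0.79 ± 0.16, adjusted p = 0.00617). The window at Mylk2 and Foxs1, a forkhead factor gene, had 7, 9 and 8 against 10, 11 and 11 (0.62 ± 0.12, adjusted p = 0.00627).

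The 3 windows that were lower in EPDCs lay in Parva, Tmcc3 and Tcf20. The window in Parva, which encodes a focal adhesion protein that links integrins to actin, held 12, 11 and 13 intervals at E11.5 and 6, 7 and 8 in EPDCs (−0.49 ± 0.12, adjusted p = 0.0150). The window in Tmcc3 held 10, 12 and 11 against 6, 7 and 6 (−0.50 ± 0.14, adjusted p = 0.0293), but by base pairs covered its difference was 0.08. The window in Tcf20 held 11 in each E11.5 library against 7, 6 and 8 (−0.38 ± 0.12, adjusted p = 0.0470). Of the 13 windows at listed genes, the families left out, that of Cspg4, a pericyte proteoglycan, was the 1 that passed. It held 8, 8 and 8 against 10, 10 and 9 intervals (0.48 ± 0.15, adjusted p = 0.0404). Of the 300, 12.7% were higher in EPDCs, and of all tested windows 8.36%. The Foxs1 window, higher as well, belongs to a family and is not among the 13. At equal numbers 5 of the 13 passed, all higher, those of Cspg4, Actb, Rara, Sparc and Smad7. At that setting 16.3% of the 300 and 10.2% of all tested windows were higher.

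EPDCs were also compared with E17.5 epicardium, which shares libraries with both comparisons above and was also the later of the groups in embryonic day. Of the 300 windows 10 were higher in EPDCs and 78 lower, against 14.3% and 19.5% of the tested windows, with medians of −0.15 and −0.10. All 88 had plain counts in the same order, with medians of 7 intervals in EPDCs against 10 in the 78 windows. The window at Slc2a1, the glucose transporter GLUT1, held 10, 11 and 11 intervals at E17.5 and 5, 4 and 7 in EPDCs (−1.08 ± 0.14, adjusted p = 0.000144). The E11.5 libraries had 7, 8 and 8, the lowest of them equal to the highest EPDC count.

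The window at Mbp on chromosome 18 held 12, 13 and 13 against 7, 7 and 8 intervals (−0.87 ± 0.12, adjusted p = 0.000256). Windows in Tns1 and at Tns4, 2 tensin genes of focal adhesions, and in Parva followed. The window in Tns1 held 9, 12 and 10 intervals at E17.5 against 6, 5 and 6 in EPDCs (−0.92 ± 0.13, adjusted p = 0.000292). The window in Parva held 11, 12 and 11 against 6, 7 and 8 (−0.78 ± 0.12, adjusted p = 0.000425), and the window at Tns4 held 9, 11 and 11 against 5, 5 and 7 (−0.93 ± 0.15, adjusted p = 0.000463). None of these overlapped between the groups. They were picked by the smallest p of this comparison, so that separation is part of the choice. Of the 13 windows at listed genes, the families left out, 6 were lower in EPDCs and none higher. Of the 300, 26% were lower, and of all tested windows 19.5%. The 6 were those of Tpm1 (−0.80), Pdpn (−0.74), Fbln2 (−0.71), Wt1 (−0.55), Fos (−0.45) and Sparc (−0.44). At equal numbers these 6 stayed lower, and the windows of Actb (0.20) and Cspg4 (0.27) were higher, where 18.2% of all tested windows were lower and 13.1% higher. The cells were sorted on PDPN, so the Pdpn window is no independent result here.

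Windows higher in EPDCs than at E17.5 included one inside Gm20388 at chr8:121350001-121400000, with 5, 5 and 6 intervals at E17.5 and 10, 9 and 12 in EPDCs (0.75 ± 0.15, adjusted p = 0.00208). The windows near Pofut2 (0.59), 64.7 kb from Tsc22d2 (0.61), at Cntfr and Il11ra1 (0.91) and near Rnd3 (0.79) followed. Of these, the windows near Pofut2, at Cntfr and Il11ra1 and near Rnd3 were also those that fell at E17.5, in the same E17.5 libraries. Of the 10 first windows 4 were higher at E17.5 than at E11.5, 1 was higher in EPDCs than at E11.5 and 4 were lower in EPDCs than at E17.5, with no call in the other direction. In the same order the shares were 38.3%, 12.7% and 26% of the 300, and 16.4%, 8.36% and 19.5% of all tested windows. These 10 were ranked first on the same shares, so nothing is read from their calls as a set.

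Single elements inside the windows changed in both directions. By the strongest overlapping interval, 570 of the 4485 elements were higher at E17.5 than at E11.5 and 900 lower, against 7.76% and 23.1% of all elements. In EPDCs against E11.5, 553 were higher and 909 lower, against 9.45% and 20.3%. In EPDCs against E17.5, 947 were higher and 963 lower, against 18.2% and 13.4%. The balance depended on the scale. With equal numbers of top intervals it was 815 and 455 at E17.5 against E11.5, where 10.3% and 11.7% of all elements were called higher and lower. It was 694 and 559 for EPDCs against E11.5 (all elements, 10.5% and 11.7%), and 818 and 1042 for EPDCs against E17.5 (all elements, 15.01% and 14.2%). Ranked by fold enrichment, 41.9%, 52.2% and 58.8% of the called elements of the windows were higher in the order given, against 28.0%, 34.1% and 56.8% of all called elements.

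A second measure, added after the data were seen, took only summits inside the element, because a wide interval can touch an element at its edge. It gave 590 higher and 862 lower elements at E17.5 against E11.5, where 7.86% and 21.6% of all elements were called. For EPDCs it gave 555 and 879 against E11.5 (all elements, 9.23% and 19.7%), and 902 and 973 against E17.5 (all elements, 16.9% and 13.4%). By this measure, 231 of the 266 windows with at least 3 called elements at E17.5 against E11.5 held both rising and falling elements (86.8%), against 60.8% of such tested windows. The shares were 85.9% of 270 against 67.2% for EPDCs against E11.5, and 91.6% of 296 against 71.4% for EPDCs against E17.5. Windows with more elements have more chances to hold both directions, and that part was not tested.

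Windows whose share changed in 1 direction held elements called in both. The windows with a higher share at E17.5 than at E11.5 held 1723 elements, of which 290 (16.8%) rose and 272 (15.8%) fell by their own summit, against 7.86% and 21.6% of all elements. The 78 windows with a lower share in EPDCs than at E17.5 held 1178 elements, of which 336 (28.5%) were lower and 169 (14.3%) higher, against 13.4% and 16.9% of all elements. Both sets of windows were picked by intervals called in the same libraries, and an element without a summit has the value 0. More elements in a window's own direction are thus tied to the choice, and nothing is read from that excess. In the window near Zfp36l1, elements of high rank in every group lay between elements with a summit in 1 group only. Its share rose at E17.5, yet none of its elements was called higher there than at E11.5 by own summit. The elements called in that comparison fell, by −27.4, −25.5 and −39.9 (adjusted p = 0.04998, 1.99e-05 and 2.05e-05).

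**Figure D5:**
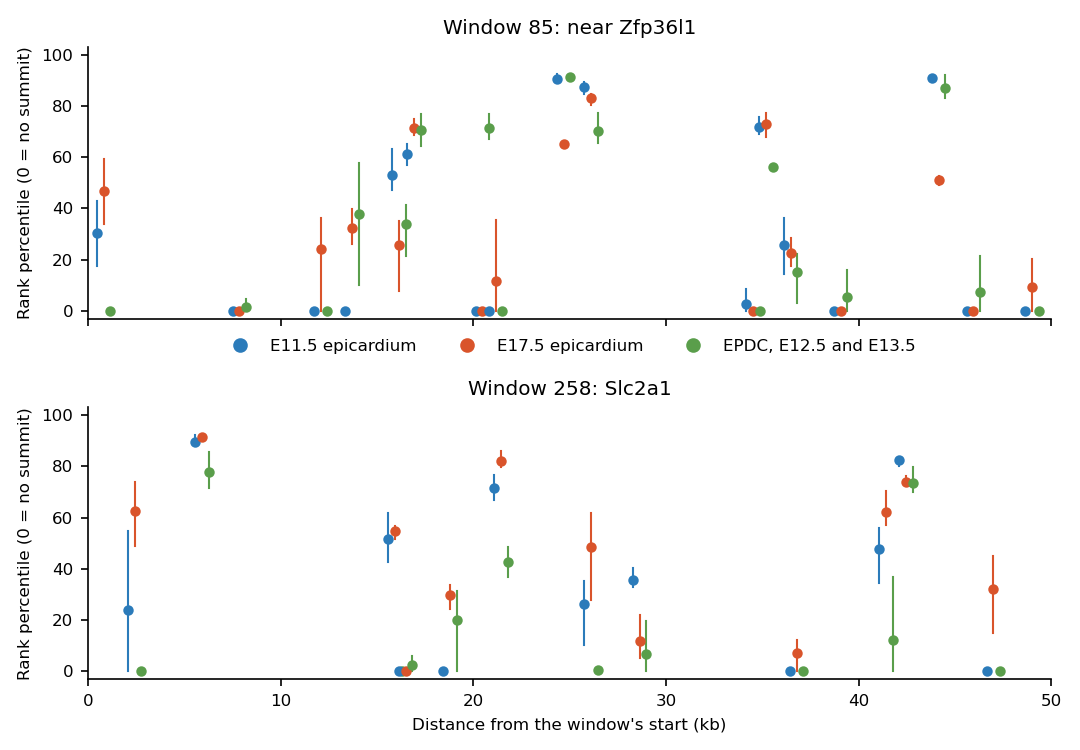
The panels show the distal elements of the window 113 kb from Zfp36l1 (top) and the window at Slc2a1 (bottom), with distance from the window's start in kb on the x axis and rank percentile of the element's own summit (0, no summit; 100, smallest p) on the y axis. Points are group means of 3 libraries, offset sideways by group, and lines run from the lowest to the highest library; elements called in all groups stand beside elements at 0 in some groups.

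All-or-none patterns were a small part. Of the 4485 elements 64 (1.43%) had a summit in all E11.5 libraries and in no other library, against 4.31% of all elements. The same pattern for E17.5 held for 177 (3.95% against 3.24%), and for EPDCs for 128 (2.85% against 3.36%). Elements missing from a single group and called in all 6 other libraries were 38 (0.847% against 0.590%) for E11.5, 165 (3.68% against 3.96%) for E17.5 and 129 (2.88% against 2.30%) for EPDCs.

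The strongest elements of the first windows were accessible throughout. The element in Gse1 had percentiles of 92.7, 95.6 and 94.6 at E11.5, 89.4, 90.5 and 92.4 at E17.5 and 87.4, 91.8 and 92.7 in EPDCs. The E11.5 values lay above all others, though the lowest of them, 92.7326, was next to the highest EPDC value, 92.7325, and neither difference passed (adjusted p = 0.156 and 0.138). The element in Hspg2 had 90.6, 92.3 and 90.8, then 74.2, 80.1 and 84.8, then 86.9, 87.8 and 81.7, and was lower at E17.5 than at E11.5 (−11.51 ± 2.8, adjusted p = 0.0131). At equal numbers the difference was −10.3, with an adjusted p of 0.114. The element in Ccdc85c had 78.6, 78.3 and 81.3, then 73.0, 75.5 and 72.6, then 69.9, 71.6 and 79.7, and did not pass in any comparison.

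The element in Col4a1 differed between the measures. By its own summit its E11.5 percentiles were 54.2, 60.9 and 66.1 and its E17.5 percentiles 66.8, 78.6 and 73.8 (12.7 ± 4.1, adjusted p = 0.0479), but by the strongest overlapping interval it was lower at E17.5 (−13.4, adjusted p = 0.0284), so no direction is given for it. The strongest element of the third window, 17.6 kb from Them7, had its own summit in every E11.5 and EPDC library but in 1 of 3 E17.5 libraries. By overlap its E17.5 percentiles were 73.8, 68.1 and 72.7 against 80.3, 75.7 and 73.3 at E11.5 and 90.05, 94.8 and 95.2 in EPDCs.

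The Msi2 element lay in the run of 4 dense windows and had percentiles of 82.8, 87.3 and 85.8 at E17.5 and 0 in the other 6 libraries (85.3 ± 4.3, adjusted p = 1.35e-05 against E11.5). The Sema3f element, 8.65 kb from the start of this semaphorin gene, had 80.4, 80.4 and 79.3 at E17.5 and 0 elsewhere, and an element in Tmem104 had 84.5, 91.9 and 86.2 and 0 elsewhere. None of the E17.5 values overlapped another group, which is part of the choice by the smallest p. Each of these 3 kept its call with equal numbers. Their percentiles were the same in both measures, so the call in the other measure is no separate result.

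The opposite pattern was found 118 kb from the start of Tbx18, a T-box factor of the epicardium. This element had 82.0, 86.7 and 86.6 at E11.5, 0, 0 and 3.8 at E17.5 and 92.3, 91.0 and 89.0 in EPDCs (E17.5 against E11.5 −83.8 ± 3.3, adjusted p = 1.35e-05). The Itpkb element had 76.8, 81.7 and 82.4, then 0 in all E17.5 libraries, then 83.2, 81.8 and 78.4. An element in Fabp12 had 77.9, 81.4 and 82.7, then 0, then 72.8, 70.3 and 70.7. In all of these the E11.5 epicardium and the EPDCs were on 1 side and the E17.5 epicardium on the other.

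Among elements of EPDCs, the one 7.5 kb from Foxs1 had 78.3, 83.0 and 84.3 in EPDCs and 0 in all epicardial libraries (81.9 ± 4.4, adjusted p = 1.17e-05 against E11.5). It lay in the window at Mylk2 and Foxs1, whose share was higher in EPDCs than at E11.5 but not called against E17.5 (0.05, adjusted p = 0.763). The element 108 kb from Bcas1 had 83.9, 80.6 and 81.1 in EPDCs and 0 in all others. Percentiles of 99.98, 99.99 and 99.998 in EPDCs and 0 in each epicardial library belonged to chr9:35305176-35305676, 37.6 kb from Rpusd4. This element was 83.4% soft-masked repeat, its −log10 p was 2606, 2900 and 10179, and its fold enrichment was 41.4, 36.8 and 35.1; the part of repeat content and of the differences between the lists in it was not tested.

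Elements lost in EPDCs included one in Bcar3, an adaptor of integrin signalling, with 80.0, 85.5 and 83.3 at E11.5, 82.9, 87.8 and 86.2 at E17.5 and 8.0, 0 and 0 in EPDCs (−80.2 ± 3.9, adjusted p = 7.84e-06 against E11.5). An element in Bcr had 75.4, 79.8 and 71.1, then 87.8, 91.2 and 91.6, then 11.6, 0 and 3.8. The Tcf20 element had 63.4, 57.2 and 57.4 at E11.5, 83.2, 88.8 and 86.6 at E17.5 and 0 in EPDCs, and was thus also higher at E17.5 than at E11.5 (26.8 ± 4.1, adjusted p = 0.00102). It lay in a window whose share was lower in EPDCs than in either epicardium. These elements were picked by the smallest p under the second measure after its values were seen, and the sites named with them had the same percentiles in both measures.

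Under the first measure, the smallest p in each comparison and direction named 12 distinct elements in 18 calls, and 12 of the 18 calls were lost when the strongest summit of the interval had to lie inside the element. These were elements in Sh3pxd2a, Tekt5, Sorcs2, Hspg2 and Ptpn14, 1 element 53.5 kb from Irf2bp2 and 1 element 15.2 kb from Ddr1. The Sorcs2 element, for example, had 95.4, 97.1 and 97.0 at E11.5, 0 at E17.5 and 94.97, 93.4 and 95.8 in EPDCs by overlap, but by its own summit 0 in every library except 4.9 in 1 EPDC library. In a further 2 elements most of the difference lay in where the summit was. One 73.9 kb from Cops8 had no own summit in EPDCs but overlap percentiles of 71.0, 77.9 and 82.9, which were not called against either epicardium. The other, in Lims1, had no own summit at E17.5 but 69.7, 86.1 and 80.4 by overlap, and EPDCs were called higher than E17.5 by overlap as well (11.98 ± 3.7, adjusted p = 0.0383) as by own summit (90.7 ± 3.9).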

How the data were processed

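Peak lists of 9 bulk ATAC-seq libraries were analysed. Per the methods, the authors aligned reads to mm10 with the nf-core ATAC-seq pipeline, removed mitochondrial, blacklisted, duplicate and multi-mapped reads, and called peaks with MACS2 (version 2.2.9.1, as in the submitters' processing notes) on fragment pairs, keeping several summits for an interval. The deposited lists give, for each summit, a score, a fold enrichment, a −log10 p and a −log10 q that the authors' peak caller computed. Nothing was normalized between libraries, and read depth is unknown: an uncalled site is below the caller's threshold, not closed. The EPDC lists nevertheless hold mitochondrial intervals, and how this arose is not given in the sources used here.

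Intervals were counted once. Windows were compared as log2(distal intervals per 100000 + 1), a scale that understates changes of low windows, in 14098 windows with a mean of at least 2. The 180457 regions of 501 bp made from summits (145044 distal) were compared by rank percentile of the strongest interval that overlapped by at least 1 bp, or 0. limma (3.58.1, R 4.3.3, trended and robust) was fitted to all 9 libraries, with Benjamini-Hochberg adjustment over all windows or all elements (threshold 0.05). It was tested on simulated data. Sequence and genes came from GRCm38 (mm10) and GENCODE M21. The p-values measure the spread between pooled-heart samples. In EPDCs that spread also holds the difference between E12.5 and E13.5, and all 9 libraries share 1 estimate of it. Alternatives were equal numbers of top intervals, a −log10 q of at least 5, summits, a pseudocount of 0.5, no filter, other ranks, a replicate block and each library left out. Base pairs covered and the own summit were added after the data were seen. Named windows were the 10 first, up to 5 per comparison and direction by smallest p, those at either side of place 300 and those at listed genes; named elements were up to 3 per comparison and direction, and the strongest of the first 5 windows not on chromosome 18. The members and lists were chosen with earlier results of these data known.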

Additional observations from a re-analysis of the deposited data

How the results depend on the processing

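Of the counts of called windows, E17.5 against E11.5 ranged from 78 (without the second E11.5 replicate, with 17.8% of all tested windows called against 27.5%) to 149 with 1 library left out, EPDC against E11.5 from 10 to 64, and EPDC against E17.5 from 60 to 104 (26.4% to 33.6% of all). EPDC against E11.5 gave 41 windows (with 15.9% of all tested windows called), 27 with summits (13.3% of all) and 91 with base pairs covered (75 higher, 16 lower; 30.5% of all). Leaving out the E11.5 replicates in turn gave 22, 13 and 10 (7.69% to 7.82% of all), leaving out the E13.5 EPDC samples 12 and 64 (7.61% and 15.8% of all), and leaving out the E12.5 EPDC sample 38 (26 higher, 12 lower). EPDC against E17.5 gave 21 higher and 79 lower at equal numbers (13.1% and 18.2% of all). Counts of called elements ranged over 1188 to 1523, 1134 to 1624 and 1660 to 2099 with 1 library left out, while 25.5% to 31.7%, 23.0% to 34.0% and 27.5% to 37.2% of all elements were called. Of the 300 windows, 163 shared at least part with a window chosen on a tiling shifted by 25 kb, 183 were chosen with base pairs, and 277 to 287 with 1 library left out; other settings kept 213 to 259. The EPDC difference of window 213, in Tmcc3, reversed to 0.0822 with base pairs. Of the other tests of named windows 393 kept direction and call and 47 lost the call; of those of named elements 273 and 21. E11.5 and E17.5 share replicate numbers, but same-numbered libraries did not deviate together (correlations of −0.04 to 0.03), so the numbers do not pair them. A replicate block was fitted to the 6 epicardial libraries alone. With it 145 windows and 678 elements (274 higher, 404 lower) were called (28.3% of all tested windows and 15.1% of all elements). The same 6 libraries without the block gave 153 windows and 1315 elements (33.7% and 27.7%). All 9 libraries gave 119 and 1470 (27.5% and 30.9%). The causes were not tested. Depth is unknown, so no interval from counting could be given, and 3 libraries a group limit every SD.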
